A study of Homo sapiens with 6 samples.

Results

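The epidermal differentiation complex is the cluster of skin genes on 1q21, taken here as chr1:151950000-153650000 on hg19, a window of 1.7 Mb. Its members are the called intervals of H3K4me3 and H3K27me3 that overlap this window, with lines that share an interval joined. There were 413 of them among 275570 intervals in all: 31 of 50585 for H3K4me3 in control cells, 24 of 53454 for H3K4me3 after metformin, 174 of 85579 for H3K27me3 in control cells and 184 of 85952 for H3K27me3 after metformin. The cells are H1299, a line established from a human lung cancer of the non-small cell type, so 1 line stands for the disease. They were grown without metformin or with it at 5 mM. Metformin is a biguanide given to people with diabetes, and how long the cells were exposed to it is not given in the sources used here. A single chromatin immunoprecipitation library was made per mark and condition, so nothing below carries a replicate error and no test between conditions was possible. Lists with no read counts leave the depth unknown, and a deeper library can give a longer list.

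The complex holds genes that build the cornified envelope, the cross-linked protein shell of dead skin cells. Late cornified envelope (LCE), small proline rich (SPRR), involucrin (IVL) and loricrin (LORICRIN) proteins are parts of that shell. Fused S100 proteins, among them filaggrin (FLG) and trichohyalin (TCHH), bundle keratin in skin and in the hair follicle, and most S100 proteins bind calcium, with S100A8 and S100A9 best known from neutrophils. H3K4me3, trimethylated lysine 4 of histone H3, marks the start sites of active genes. H3K27me3 is laid down by Polycomb repressive complex 2 and covers silent developmental and tissue-specific genes.

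All 63 listed genes of the complex were found in the RefSeq table of GRCh38.p14, where they follow each other in blocks. The order there begins with S100A10 and S100A11, followed by the fused S100 genes from TCHHL1 and TCHH to CRNN. The late cornified envelope genes come next, from LCE5A to LCE6A, then IVL and the small proline rich genes. LORICRIN, the peptidoglycan receptor genes PGLYRP3 and PGLYRP4 and the S100 genes from S100A9 to S100A1 close the row. The peak lists are on hg19, so no gene was placed on an interval, and intervals are named by position.

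Promoters of these families were mostly poor in CG dinucleotides, and the families differed in how often TATAAA was present. RefSeq promoters (GRCh38.p14, the 250 bases before each start site) were at hand for 58 of the 63 genes, 66 promoters in all, since some genes have several. The median number of CG dinucleotides was 1 in fused S100 and in small proline rich promoters, 2 in late cornified envelope promoters and 4 in S100 promoters, against 11 over all 35116 promoters of the table. At least 10 CG dinucleotides were present in 5 of 23 S100 promoters (21.7%) and in none of the other 43 promoters of the complex, against 52.2% of all promoters. Those 5 belong to S100A6, S100A10, S100A11 and S100A13, the last with promoters of 10 and of 15 CG dinucleotides. The motif TATAAA, searched on both strands (its complement reads TTTATA), was present in 8 of 9 small proline rich promoters (88.9%), 5 of 7 fused S100 promoters (71.4%), 8 of 18 late cornified envelope promoters (44.4%) and 8 of 23 S100 promoters (34.8%), against 10.7% of all promoters. The 9 promoters outside these families, that of IVL among them, had a median of 2 CG dinucleotides, and 3 of them (33.3%) held TATAAA. A match describes these letters and is not a site shown to be used. An example from either end of the range is printed 5′ to 3′ on the strand of the gene, with CG dinucleotides and TATAAA in capitals. S100A10, a partner of annexin A2 at the cell membrane, has 24 CG dinucleotides, as S100A6 has, and lies on the minus strand. IVL has none, as have other genes of the complex such as CRNN, and lies on the plus strand.
S100A10: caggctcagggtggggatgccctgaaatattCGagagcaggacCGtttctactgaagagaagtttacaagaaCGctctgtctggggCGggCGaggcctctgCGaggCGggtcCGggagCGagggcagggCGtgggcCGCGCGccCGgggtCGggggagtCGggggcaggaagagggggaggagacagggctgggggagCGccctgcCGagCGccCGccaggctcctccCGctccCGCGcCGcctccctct
IVL: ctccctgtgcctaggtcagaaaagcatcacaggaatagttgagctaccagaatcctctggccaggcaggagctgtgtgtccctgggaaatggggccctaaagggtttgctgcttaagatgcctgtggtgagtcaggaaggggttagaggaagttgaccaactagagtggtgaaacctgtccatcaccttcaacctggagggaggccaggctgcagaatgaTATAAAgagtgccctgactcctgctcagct

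The window was rich in H3K27me3 and held little H3K4me3 compared with its surroundings. H3K27me3 covered 215 kb (12.7% of the window) in control cells and 222 kb (13.1%) after metformin, which is 4.50 and 4.25 times the share covered along chromosomes 1 to 22 and X (2.82% and 3.08%). The excess lay in 2 dense stretches described below, and the rest of the window was covered to 2.87% and 3.05%. Among 1612 tiles of the same 1.7 Mb length that held any interval, 94.7% in control and 94.2% after metformin had less H3K27me3 than this window. For H3K4me3 the lengths were 34.0 kb (2.0%) and 34.4 kb (2.02%), above 68.6% and 66.7% of tiles. This rests on the edges of the window: H3K4me3 coverage was 1.23 and 1.11 times the whole-list share, but 0.372 and 0.317 times with 100 kb taken off each side.

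The flanks of equal length showed the opposite balance of the marks. With control given first, H3K4me3 covered 135 kb and 144 kb on the centromere side, and 157 kb and 186 kb on the telomere side. H3K27me3 covered 19.4 kb and 28.4 kb on the centromere side, and 112 kb and 149 kb on the telomere side. Relative to the whole-list share this was 0.404 and 0.544 times on the centromere side, but 2.35 and 2.85 times on the telomere side. The telomere flank was therefore itself rich in H3K27me3, though less so than the window. In either condition the window thus had less H3K4me3 and more H3K27me3 than both flanks. Tiles are not replicates, so these ranks are descriptions.

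**Figure D1:**
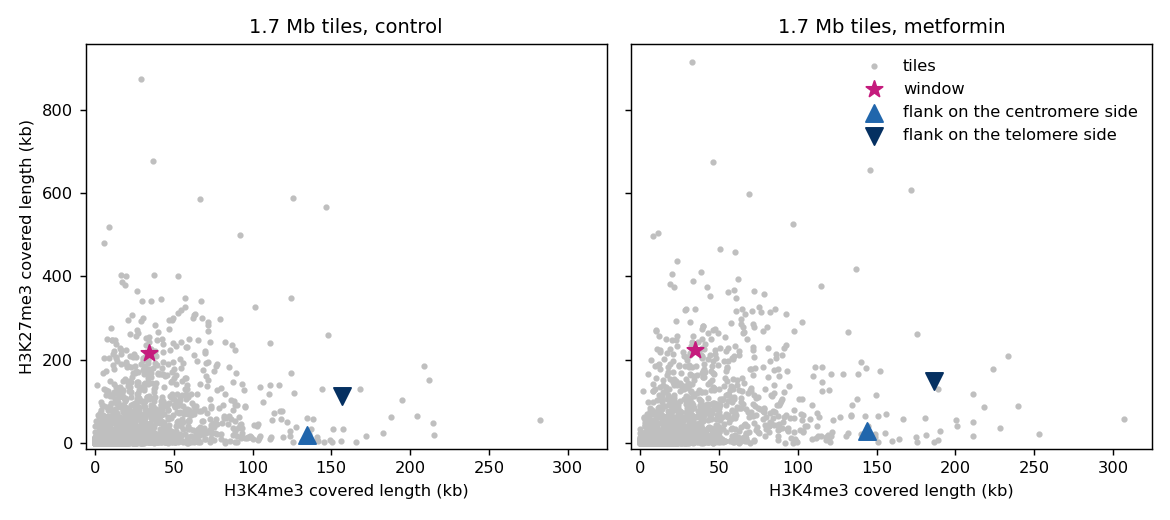
Covered length of H3K4me3 (x axis, kb) and H3K27me3 (y axis, kb) in tiles of 1.7 Mb (grey points), with the window of the complex (star) and its flanks (triangles), in control and metformin lists. The star lies at 215 kb and 222 kb of H3K27me3 with 34.0 kb and 34.4 kb of H3K4me3, while both flanks lie at 135 kb of H3K4me3 or more.

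Covered length in the window was nearly equal in the conditions. The metformin to control ratio was 1.01 for H3K4me3, against 1.12 over the whole lists, and 1.03 for H3K27me3, against 1.09. Across tiles the ratio had a median of 1.09 for H3K4me3 (quartiles 1.02 and 1.19) and of 1.10 for H3K27me3 (0.944 and 1.31), and 22.2% and 37.8% of tiles had a lower ratio than the window. The length-weighted mean of the deposited value, read as −log10 q, was 29.8 in control and 33.9 after metformin for H3K4me3, and 1.72 and 1.74 for H3K27me3. The H3K4me3 ratio turned to 0.934 when intervals within 1 kb were merged, so its direction is not settled. The flanks had H3K27me3 ratios of 1.47 on the centromere side and 1.32 on the telomere side.

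Both marks were spread unevenly over the window. H3K4me3 lay mostly at the ends: the first 2 bins of 100 kb held 18.3 kb of it in the control list and 18.6 kb in the metformin list, and the last bin 13.2 kb in both. The same first 2 bins also held 51.6 kb of H3K27me3 in control and 54.8 kb after metformin, and the last bin 0.644 and 0.901 kb. Between the ends ran 1.07 Mb, chr1:152162406-153232580, with no H3K4me3 in either list. Of 60082 gaps between H3K4me3 intervals of the pooled lists, 327 were at least as long. This counts gaps, short breaks between neighbouring intervals included, and the share of sequence in such long gaps was not computed. H3K27me3 was present in all 17 bins of 100 kb in both lists, from 0.272 to 57.1 kb in control and from 0.901 to 58.7 kb after metformin, while 12 of the 17 bins in control and 11 after metformin had no H3K4me3. In each list the bin with the least H3K27me3 held only 1 interval, so presence in every bin is not continuous coverage. The share of such bins along the genome was not computed.

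**Figure D2:**
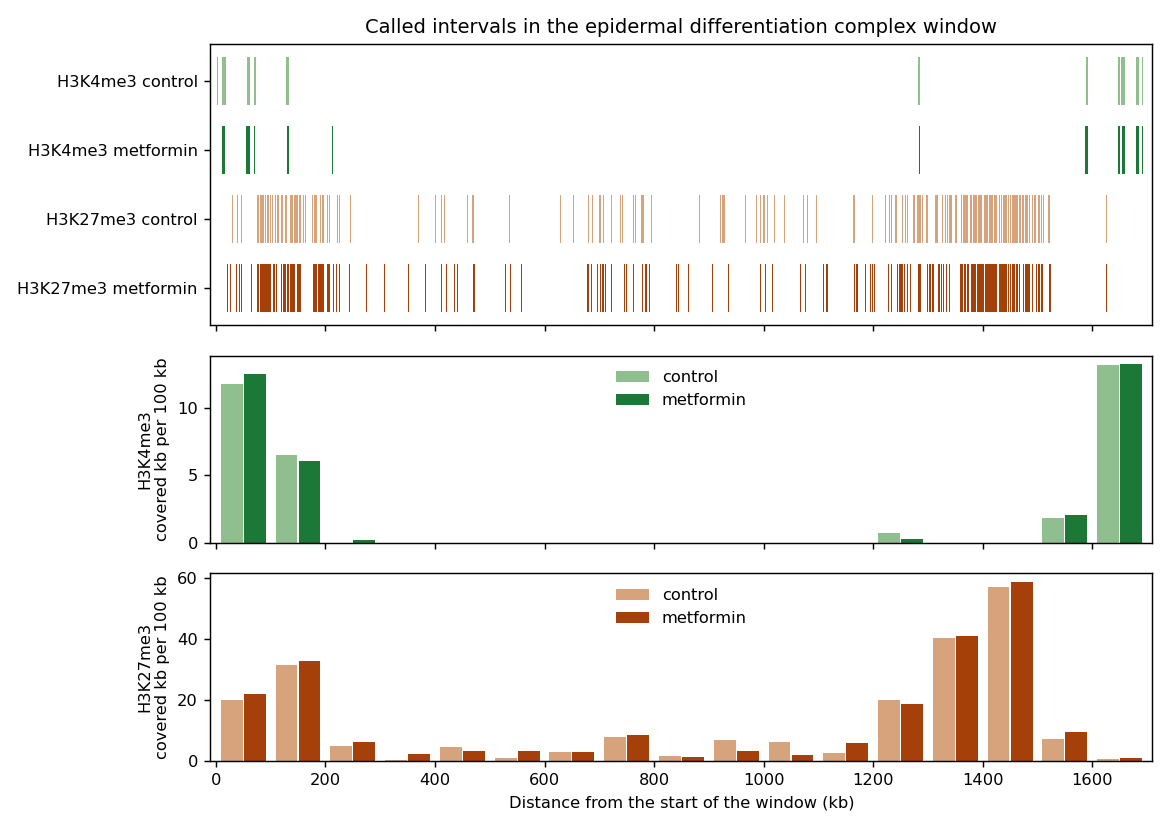
Top, called intervals of the 4 lists along the window (x axis, kb from its start), with intervals under 1.5 kb drawn at 1.5 kb; middle and bottom, covered length of each mark per 100 kb (y axis, kb), control pale and metformin dark. H3K4me3 stands at the ends, and H3K27me3 is densest in the fifteenth bin (57.1 and 58.7 kb), then the fourteenth (40.4 and 41.2 kb) and the second (31.6 and 32.9 kb).

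H3K4me3 intervals of either list within 2 kb of each other were joined into 13 sites. Both lists had an interval in 11 of them, control alone in 1 and metformin alone in 1. Of the 11 shared sites, 6 had more covered length in control and 5 after metformin, with ratios from 0.426 to 1.18 and a median of 0.997. Only 2 of the 13 sites held any H3K27me3.

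Towards the centromere, H3K4me3 stood in 3 larger sites free of H3K27me3 and in 1 short control interval, chr1:151952778-151953060 (283 bp, −log10 q 2.31). The first of the 3, chr1:151960391-151967876, carried 6968 bp in 3 control intervals and 7251 bp in 2 metformin intervals. Its leading interval was the longest H3K4me3 member in each list, chr1:151960482-151966226 in control (5745 bp, −log10 q 40.8) and chr1:151960391-151967365 after metformin (6975 bp, 43.3). The metformin interval overlapped 2 control intervals, so what was called as 2 pieces in control was called as 1 after metformin.

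The next site, chr1:152005725-152010868, held the highest H3K4me3 value of the window in control cells. Its covered length was 3382 bp, then 3986 bp in the metformin list, the largest ratio among the shared sites (1.18). The leading intervals were chr1:152006874-152009895 (3022 bp, −log10 q 51.1) and chr1:152007141-152009983 (2843 bp, 36.7). Here the leading interval was the shorter after metformin, and the added length came from small intervals beside it, among them chr1:152005725-152006287 (563 bp, 6.20), which no control interval overlapped. A smaller site at chr1:152019645-152021254 was covered over 1152 and 1309 bp, with values of 17.8 and 11.5. Nearest H3K27me3 to these 3 sites lay 11.1, 9.07 and 4.26 kb away in control and 3.14, 3.85 and 4.01 kb away after metformin. At the first 2 sites the nearest interval of each list was overlapped by none of the other list. Their values were low, 1.36 and 2.41 in control and 1.35 and 2.12 after metformin.

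A wide H3K4me3 domain lay inside an H3K27me3 stretch, and the marks met there differently in the lists. H3K4me3 was called at chr1:152079388-152084369 in control (4982 bp, −log10 q 43.7, 14 sub-peaks) and at chr1:152079692-152084333 after metformin (4642 bp, 46.6, 16 sub-peaks). The metformin interval lies wholly within the control one, so 4642 bp carried H3K4me3 in both. In control cells called H3K27me3 stopped at either edge of that stretch: chr1:152078040-152079741 (1702 bp, 1.30) ended 50 bp into it, and chr1:152084817-152091692 (6876 bp, 2.30) began beyond it. After metformin chr1:152078965-152083390 (4426 bp, 2.34) ran over 3699 bp of the common stretch, 79.7% of it against 1.08% in control. It covered all of the first 50% of the stretch and 59.4% of the last 50%. These H3K27me3 values lie near the calling limit, read as 1, and signal below that limit would not appear in a list.

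The same domain's surroundings also differed in how H3K27me3 was distributed. In the 10 kb before the site it took up 3.35 kb of control and 7.03 kb of metformin sequence, and in the 10 kb after it 7.69 kb and 5.12 kb. Small H3K4me3 intervals beside the domain differed too: chr1:152078318-152078980 (663 bp, −log10 q 2.28) and chr1:152086335-152086551 (217 bp, 1.56) were called in control alone. On the far side chr1:152084694-152085373 (680 bp, 15.1) in control matched chr1:152084564-152086009 (1446 bp, 9.92) after metformin. Over the whole metformin list, 54 of 8772 H3K4me3 intervals of 2 kb or more (0.616%) had at least 50% of their length under H3K27me3. In 4 of those 8772 (0.0456%), this domain among them, control H3K27me3 covered under 5% of the same interval. The reverse, such control intervals with under 5% covered after metformin, was found for 0 of 7403, and 15 of 7403 (0.203%) had at least 50% under control H3K27me3. This domain was singled out with its values known, and with 1 library per condition a difference between libraries and an effect of metformin cannot be told apart.

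**Figure D3:**
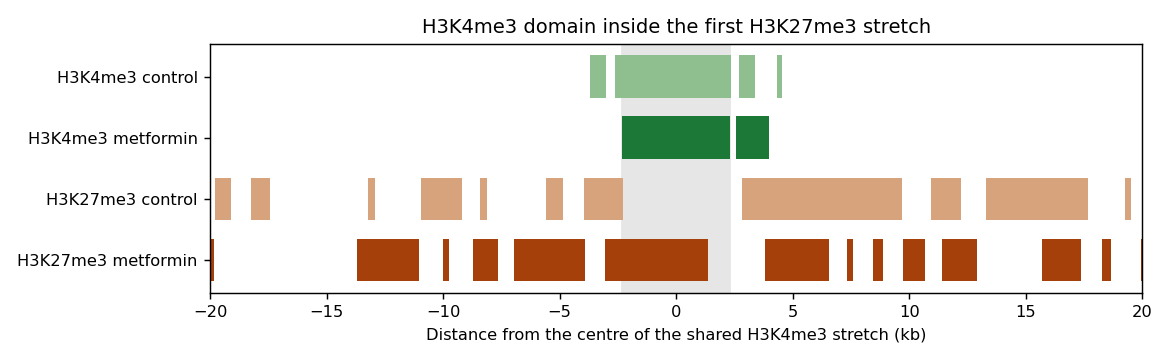
Called intervals of the 4 lists within 20 kb of the centre of the H3K4me3 stretch common to both lists (x axis, kb); grey marks that stretch of 4642 bp. Control H3K27me3 flanks the grey zone and enters it by 50 bp, while metformin H3K27me3 covers 3699 bp of it.

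A second place with both marks was small and lay in another H3K27me3-rich stretch towards the telomere. Control H3K4me3 was called at chr1:153232581-153232983 (403 bp, −log10 q 2.63) and chr1:153234373-153234685 (313 bp, 2.30), of which 403 bp and 167 bp were under H3K27me3. After metformin chr1:153234367-153234671 remained (305 bp, 6.76), and all 305 bp were under H3K27me3. The H3K27me3 interval chr1:153234304-153234539 at this place had the highest H3K27me3 value of the window in control (3.26). Only 1 site was found after metformin alone, chr1:152162212-152162405 (194 bp, 4.62), 75.7 kb from the nearest control interval. The control values at the small place with both marks, 2.63 and 2.30, lie close to the calling limit, which was read as 1.30.

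On the telomere side H3K4me3 stood in sites without H3K27me3. From the centre outwards these began with a single short interval at chr1:153463137-153463533 (351 and 346 bp, −log10 q 3.46 and 3.25). Then came a group of short intervals at chr1:153536388-153541493 (1472 and 1715 bp in all, highest value 6.52 and 5.65), of which none exceeded 413 bp in control or 594 bp in the metformin list. The last 52.7 kb held 4 stronger sites. H3K4me3 covered 2330 and 2323 bp at chr1:153597297-153600021, and 4446 and 4232 bp at chr1:153603152-153609758. It covered 2797 and 2628 bp at chr1:153630430-153634265, and 3597 and 4040 bp at chr1:153640666-153645043. Highest values were 18.5 and 26.8, 27.2 and 36.7, 39.2 and 42.0, and 43.5 and 59.1 in that order, higher in the metformin list at each of the 4. Over the 11 shared sites the metformin value was the higher in 7. The whole metformin list also has higher H3K4me3 values (length-weighted mean 30.3 against 25.5), and they depend on depth, so they were not read as a stronger mark.

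**Figure D4:**
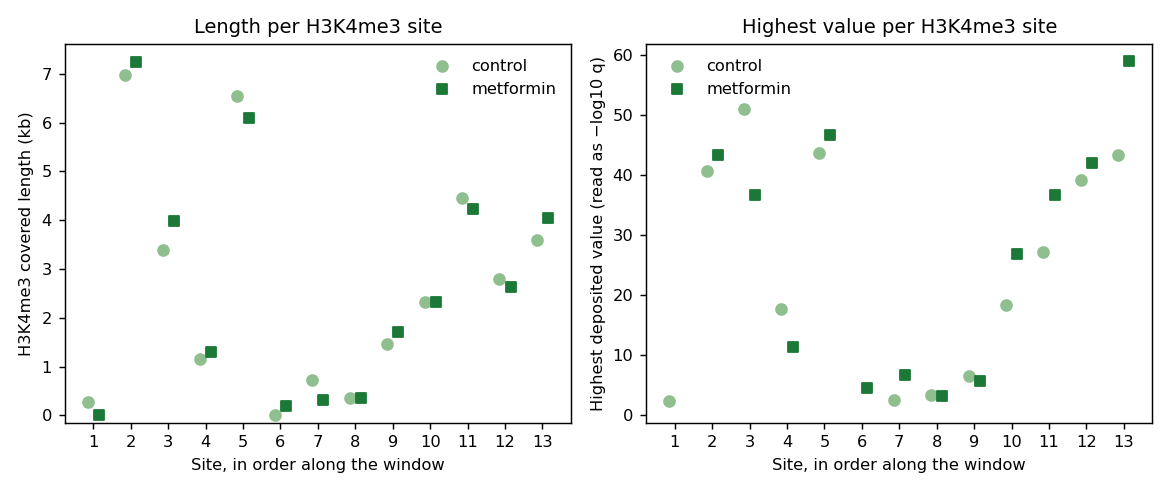
Covered H3K4me3 length (left, kb) and highest deposited value (right, read as −log10 q) at the 13 sites in order along the window, control as circles and metformin as squares; a site with no interval in a list is drawn at a length of 0 and has no value. The sites differ far more from each other than between the lists: lengths run from 0 to 7251 bp, while shared sites differ by at most 604 bp.

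Wide H3K4me3 intervals, of 2 kb or more, numbered 6 of 31 in control (14.6% over the whole list) and 7 of 24 after metformin (16.4%). Each was overlapped by an interval of the other list, as were 100% of such control intervals and, to 3 digits, 100% of such metformin intervals elsewhere. Of those not named above, control had chr1:153606573-153609082 (2510 bp), chr1:153630879-153633153 (2275 bp) and chr1:153640840-153643457 (2618 bp). After metformin these stood at chr1:153606573-153609626 (3054 bp), chr1:153630770-153633233 (2464 bp) and chr1:153640666-153643514 (2849 bp), with chr1:153597699-153600021 (2323 bp) as the seventh. The last had a control counterpart of 1930 bp, just under the limit. The longer metformin intervals went with fewer small ones: median widths were 403 and 579 bp, and intervals with a single sub-peak numbered 21 and 12.

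H3K27me3 gathered in 2 stretches, found by joining intervals of either list within 10 kb and keeping results of 50 kb or more. Together they took up 27.1% of the window and held 83.5% of its H3K27me3 in control and 83.0% after metformin. The first, chr1:152025268-152175656 (150 kb), was covered to 36.7% in control by 38 intervals and to 38.0% after metformin by 40. The second, chr1:153163662-153473822 (310 kb), was covered to 40.2% by 80 intervals and to 41.1% by 76. Metformin to control ratios of covered length were 1.04 and 1.02. Outside the stretches H3K27me3 covered 2.87% in control and 3.05% after metformin, close to the whole-list shares of 2.82% and 3.08%.

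The longest H3K27me3 intervals lay in those stretches. In control they were chr1:153351728-153360652 (8925 bp), chr1:152030186-152038197 (8012 bp), chr1:153387264-153394201 (6938 bp), chr1:152084817-152091692 (6876 bp) and chr1:153314951-153320818 (5868 bp). After metformin they were chr1:153427234-153436672 (9439 bp), chr1:153362023-153370538 (8516 bp), chr1:152030442-152038879 (8438 bp), chr1:153309255-153314811 (5557 bp) and chr1:153389370-153394817 (5448 bp). The region near the start of the first stretch was nearly the same in both lists, with 7756 bp in common. By contrast the longest control interval was met by 5 metformin intervals that covered 5017 bp of it, and the longest metformin interval by 5 control intervals that covered 6609 bp. An overlap with several intervals of the other list was found for 17 of 174 control intervals (5.51% over the whole list) and 14 of 184 metformin intervals (6.68%).

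H3K27me3 values lay near the limit of calling, in the window as in the whole lists, whose length-weighted means were 1.67 and 1.68 against 1.72 and 1.74 here. Values in the window ran from 1.13 to 3.26 in control and from 1.14 to 3.01 after metformin, where the limit of calling was read as 1, so single intervals carry little weight. Besides the one named above, the highest control values belonged to chr1:153115926-153116256 (2.66), chr1:152417349-152417572 (2.49), chr1:152048853-152049220 (2.42) and chr1:151996495-151996653 (2.41). After metformin they belonged to chr1:152056430-152057601 (3.01), chr1:153424238-153424439 (2.81), chr1:152952364-152952529 (2.72), chr1:153174751-153174995 (2.70) and chr1:153232330-153233450 (2.60). Apart from chr1:152056430-152057601 (1172 bp) and chr1:153232330-153233450 (1121 bp), the intervals named for their values were 159 to 368 bp long.

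The 1.07 Mb without H3K4me3 held scattered H3K27me3. There were 71 control intervals over 48.7 kb (4.55% of it) and 80 metformin intervals over 48.5 kb (4.53%), with median widths of 517 and 432 bp. The other list overlapped 19 of the 71 (26.8%) and 20 of the 80 (25%), where the whole lists had 48.3% and 46.3% over all widths. This part takes in the end of the first H3K27me3 stretch, up to 152175656, and the start of the second, from 153163662. Its coverage and sharing thus mix dense and sparse places. The longest stretches free of H3K27me3 were chr1:152194605-152318674 (124 kb) in control and chr1:152507586-152627930 (120 kb) after metformin. Each was interrupted in the other list, whereas 101 kb on the telomere side, chr1:153473823-153574951, was free of H3K27me3 in both.

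Most H3K4me3 intervals of the window were overlapped by the other list. In one direction 22 of 31 control intervals (71.0%, exact Clopper-Pearson 95% interval 52.0 to 85.8) overlapped a metformin interval, against 77.3% over the whole list. In the other direction 20 of 24 metformin intervals (83.3%, 62.6 to 95.3) overlapped a control interval, against 67.3%. These confidence intervals cover counting error only, and both contain the share of the whole list. They also treat called intervals as independent, although the 31 and 24 lie in 13 sites. The 9 control-only intervals were at most 663 bp long, with values up to 6.52 (chr1:153539458-153539757), and 6 of them lay within 1 kb of a metformin interval. The 4 metformin-only intervals were at most 563 bp long. At a −log10 q of 5 or more, 13 of 14 control intervals (95.6% over the whole list) and 14 of 15 metformin intervals (90% over the whole list) were overlapped by any interval of the other list. With both lists held to that value it was 12 of 14 (85.7%) and 12 of 15 (80%). With at least 50% of the interval overlapped, at any value, the shares were 61.3% of control and 66.7% of metformin intervals. By length, 86.0% of the control and 85.1% of the metformin H3K4me3 was shared, against 83.0% and 74.3% over the whole lists.

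For H3K27me3, 91 of 174 control intervals (52.3%, 44.6 to 59.9) and 97 of 184 metformin intervals (52.7%, 45.2 to 60.1) overlapped the other list, against 48.3% and 46.3% of the whole lists. With at least 50% of the interval overlapped, the shares fell to 37.9% of control and 32.6% of metformin intervals, against 29.9% and 26.1% of the whole lists. Within the stretches the share overlapped by 1 bp or more was 63.2% and 72.5% in the first and 71.3% and 75% in the second. Outside them 10 of 56 control intervals (17.9%) and 11 of 68 metformin intervals (16.2%) were overlapped. The stretches are by construction the densest places, where a 1 bp overlap is met more often, so these shares do not compare agreement between places. By width, 29 of 31 control intervals of 2 kb or more (93.5%) and 34 of 35 metformin ones (97.1%) were overlapped, against 94.1% and 92.2% of such intervals over the whole lists. Under 500 bp it was 34.5% and 28.2%, against 29.1% and 26.1%. Wide intervals are touched more easily. By length 48.9% and 47.4% of the window's H3K27me3 was shared, against 43.1% and 39.5% over the whole lists. Wide intervals made up 31 of 174 in control (10.9% over the whole list) and 35 of 184 after metformin (12.4%). Of the 83 control-only and 87 metformin-only intervals, 33 and 34 lay within 1 kb of the other list.

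H3K4me3 intervals under H3K27me3 were 6 of 31 in control (19.4%, 7.45 to 37.5), against 2.78% over the whole list, and 3 of 24 after metformin (12.5%, 2.66 to 32.4), against 4.55%. All 9 belonged to the 2 places described, and neighbouring intervals of 1 domain are not independent, so the shares rest on 2 places. With at least 200 bp of overlap 5 and 2 were left, against 1.92% and 3.29% of the whole lists. Among H3K4me3 intervals with a value of 5 or more, the order of the conditions turned: H3K27me3 overlapped 2 of 14 control intervals (2.32% over the whole list) and 3 of 15 metformin intervals (4.14%). The sequence under both marks was longer after metformin, 4196 bp against 2361 bp, because 3699 bp came from the single wide domain. That is 12.2% of the metformin and 6.94% of the control H3K4me3 length in the window, where the whole lists had 1.96% and 1.04%. In the flanks 122 bp and 0 bp on the centromere side and 946 bp and 2692 bp on the telomere side carried both marks, control first.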

How the data were processed

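H3K4me3 and H3K27me3 were mapped by chromatin immunoprecipitation sequencing in control and metformin-treated H1299 cells. Per the labels' protocols, micrococcal nuclease was used to cut formaldehyde-fixed chromatin. The submitters' processing notes name Trimmomatic 0.38, Bowtie, MACS2 and hg19; neither options nor the background library is given there. Each of the 4 deposited peak lists belongs to 1 library. The 2 input libraries were not analysed here. The deposited value per peak has no stated unit and was read from its range as −log10 q: H3K4me3 values start at 1.31, just above the −log10 of 0.05, and H3K27me3 values at 1.01 and 1.00, the −log10 of 0.1 that MACS2 uses for broad regions. Such values rank peaks within a list and are not signal levels. Read depth is unknown.

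Lines sharing an interval were joined and kept the highest value. Intervals overlapping the window were the members, and length was counted inside the window; an overlap was 1 bp or more. Shares along the genome use chromosome length up to the last called interval. Regions named are the 5 highest and 5 longest intervals of each list, H3K4me3 intervals of 2 kb or more or with 200 bp or more under H3K27me3, and the longest free stretches; sites, stretches and single-list intervals were named after their values were seen. The members and lists were chosen with earlier results of these data known. Overlap code was tested on simulated data and against bedtools 2.31.1. Python 3.11.15, pandas 2.3.3, numpy 2.4.6, scipy 1.17.1 and matplotlib 3.10.9 were used. Alternatives were a stricter value, merging within 1 kb, lists of equal length, other overlaps and other window edges.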

Additional observations from a re-analysis of the deposited data

How the results depend on the processing

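No paired analysis was possible because each mark and condition has a single library, and no replicate could be left out. Lists of equal length kept all 31 and 24 H3K4me3 and all 174 and 184 H3K27me3 intervals of the window. The covered-length ratios and sharing percentages therefore could not change, and this setting says nothing about depth. It was not run for other results. Covered length after metformin relative to control (1.01 for H3K4me3, 1.03 for H3K27me3) became 1.11 and 1.04 at stricter values (5 and 1.5), and 0.934 and 1.07 after merging across gaps of up to 1 kb. H3K27me3 sharing (52.3% control, 52.7% metformin) was 37.9% and 32.6% with at least 50% of the interval overlapped. Control H3K4me3 intervals under H3K27me3 numbered 2 rather than 6 at a value of 5 or more, while 3 of 3 were left after metformin, so the order of the conditions turned. Coverage relative to the whole list is given as control, then metformin. For H3K27me3 (4.50 and 4.25 times) it was 4.05 and 3.84 in a window 100 kb wider on each side, 4.61 and 4.33 in one 100 kb narrower, 5.18 and 4.90 at the stricter value and 3.63 and 3.82 by number of intervals. For H3K4me3 (1.23 and 1.11 times) these were 1.36 and 1.27, then 0.372 and 0.317, then 1.22 and 1.18, then 1.09 and 0.801: H3K4me3 stands at the edges, so the narrower window loses most of it. Settings chosen after seeing the data were these. Joining H3K27me3 within 5 kb or 20 kb put 75.7% or 96.4% of control and 75.4% or 95.8% of metformin H3K27me3 into 3 or 6 stretches, against 83.5% and 83.0% in 2. At the stricter value the common H3K4me3 stretch had 0 bp of control and 3699 bp of metformin H3K27me3. Merging left its 50 bp and 3699 bp.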
